A study of Mus musculus with 17 samples.

Results

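The genes described here build, trim and cap the sugar chains of cell surface and secreted proteins and lipids, together with the syndecans, which carry such chains on their extracellular part. They were selected by symbol from the count table as sialyltransferases, N-glycan mannosidases and branching enzymes, galactosyltransferases and lactosamine extension enzymes, O-GalNAc starting enzymes, fucosyltransferases, sulfotransferases and heparan sulfate enzymes, with Cmah, Cmas, Gne, Neu1, Neu3 and Sdc1 to Sdc4 added by name. The selection held 105 of 22859 genes. Of these members, 86 had enough counts to be tested and 19 did not.

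RNA was sequenced in bulk from macrophages sorted from mouse synovium, the membrane that lines the joint. All mice were labelled Fcgr2b-KO, so controls also carried the knockout of this inhibitory IgG receptor, and the methods of the study describe adult mice of either sex without wild-type libraries among those used here. Mice either were controls, labelled healthy, or received immune complexes (IC) of ovalbumin and rabbit antibody into a vein and were culled 8 h later. The 3 sorted subsets were LYVE1+CX3CR1+ macrophages, labelled Lyve1, MHCII+CD11c- macrophages, labelled IAIE, and MHCII+CD11c+ macrophages, labelled CD11c. Each of the 6 groups held 3 libraries, except MHCII+CD11c+ macrophages after IC with 2. Neither the labels nor the methods state whether the libraries of a group came from separate mice, although a legend of the study gives numbers of mice for wild-type libraries of these subsets, so p-values measure the spread between these libraries, which may be technical.

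Sugar chains are not copied from a template. They are made by enzymes acting in order along the secretory pathway, so the enzymes a cell expresses limit the chains it can carry. On N-glycans, class I mannosidases trim the precursor, Mgat1 adds the first branching sugar, alpha-mannosidase II (Man2a1 or Man2a2) removes further mannose and Mgat2 and later Mgat enzymes add more branches, which are extended with galactose and capped with sialic acid. Macrophages read sialic acid with Siglec receptors, and heparan sulfate chains on syndecans bind chemokines and growth factors.

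Sequencing depth ranged from 2301913 to 7248939 counts per library. Macrophage markers summed to 2404 CPM (counts scaled to library size) or more in every library, but differed between subsets. The sum was 2404 to 2727 CPM in MHCII+CD11c+ controls and 3398 to 3692 CPM after IC. In the libraries of the other subsets it was 5167 to 8440 CPM. Each of the 6 markers was lower in MHCII+CD11c+ controls than in the other controls, without overlap. In MHCII+CD11c+ controls Mertk was 15.5 to 55.5 CPM and Fcgr1 0.756 to 19.9 CPM. In the other controls Mertk was 123 to 237 CPM and Fcgr1 58.7 to 140 CPM. The part of these marker differences in the differences between subsets was not tested. The sort markers followed the labels, since Itgax was 275 to 443 CPM in MHCII+CD11c+ libraries and at most 16.0 CPM in all others. H2-Ab1 was at most 36.8 CPM in LYVE1+CX3CR1+ libraries and at least 2654 CPM elsewhere. Counts were assigned to Fcgr2b in every group, with means from 104 to 217 CPM, and counts per gene do not tell which exons are covered, so the knockout could not be checked. One control library of MHCII+CD11c+ macrophages, replicate 2, held 382 CPM of Lyve1 and 81.2 CPM of Vsig4, whereas the other two held 29.8 and 25.3 CPM of Lyve1 and 1.06 and 0 CPM of Vsig4. Replicate 2 of the MHCII+CD11c- controls also held more Vsig4 (306 CPM, against 29.0 and 22.4 CPM) and Lyve1 (1131 CPM, against 695 and 730 CPM). After IC, MHCII+CD11c- replicate 1 held 541 CPM of Vsig4, against 144 and 28.3 CPM. For each contrast that uses MHCII+CD11c+ control replicate 2, counts of calls without it are given, with the values of the members called after IC. The MHCII+CD11c- libraries were left out only in the ranges over single libraries. LYVE1+CX3CR1+ libraries after IC had fewer genes detected at equal depth (11547 to 13834) than their controls (16375 to 17456), and their pairwise correlations (0.855 to 0.890) included the lowest of the study.

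In order of level, 2 syndecans led the selection. Compared per kilobase of exon, Sdc3 had the highest mean over all libraries (131 CPM per kb), followed by Sdc4 (92.3 CPM per kb). The highest member of each other group was B4galt5 (39.6 CPM per kb), which makes lactosylceramide, Mgat2 (35.8), St6gal1 (35.5), which caps N-glycans with sialic acid, Galnt1 (19.96), which starts O-GalNAc chains, the lysosomal sialidase Neu1 (19.8), the keratan sulfate sulfotransferase Chst1 (13.7), Ndst2 (11.9), which modifies heparan sulfate, and Fut11 (7.84). Of the 105 members, 55 had a mean of at least 10 CPM and 13 a mean of at least 100 CPM. The 19 members not tested, among them the ganglioside sialidase Neu3, totalled 4 to 109 counts over all libraries and did not exceed 7.25 CPM in any of them, which is too shallow to call them absent.

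To ask how the sugar chain machinery differs between subsets without IC, control LYVE1+CX3CR1+ macrophages were compared with control MHCII+CD11c+ macrophages. The transcripts that differed included sialyltransferases in both directions, N-glycan enzymes and syndecans. LYVE1+CX3CR1+ macrophages had more Cmah, more of the mannosidases Man1a, Man1c1 and Man2a1, and more St6gal1, whereas MHCII+CD11c+ macrophages had more Man2a2, St3gal4, St8sia1, St8sia6 and Sdc1. Of the 86 members tested, 31 were called at an adjusted p under 0.05 (edgeR quasi-likelihood test, Benjamini-Hochberg over all genes), where 15.2% of all genes were called. Higher in LYVE1+CX3CR1+ were 18 members, against 7.83% of all genes, and lower were 13, against 7.4%. The median difference of the members was 0.31 on the log2 scale, beside 0.05 for all genes tested. In bulk samples, fewer cells of a type and less RNA per cell cannot be told apart.

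Sialic acid supply and capping come first. Cmah, which turns the N-acetyl into the N-glycolyl form of CMP-sialic acid, was 218, 194 and 272 CPM in the LYVE1+CX3CR1+ controls. In the MHCII+CD11c+ controls it was 4.89, 7.99 and 9.83 CPM. No library of one group came near the other, and the difference was 4.94 ± 0.29 on the log2 scale (SE; adjusted p = 1.13e-10). Cmas, which activates sialic acid, and Gne, which starts its synthesis, were 20.8 to 32.5 CPM and 10.8 to 21.3 CPM over the libraries of both groups and were not called.

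St6gal1 was 243, 260 and 255 CPM in LYVE1+CX3CR1+ against 116, 105 and 61.3 CPM in MHCII+CD11c+ controls (1.42 ± 0.22, adjusted p = 7.09e-05). St3gal4, which caps the same galactose in another linkage, showed the opposite order, with 16.5, 14.1 and 21.8 CPM against 90.4, 52.2 and 117 CPM (-2.30 ± 0.33, adjusted p = 2.59e-05). All libraries of one subset lay outside the range of the other for both genes. St6galnac4 (1.28 ± 0.28) and St3gal6 (1.80 ± 0.59) were higher in LYVE1+CX3CR1+ macrophages, and St3gal3 (-1.34 ± 0.35) was lower. The call of St3gal6 was lost under 8 of its 14 alternatives, with an adjusted p of up to 0.156, and that of St3gal3 without LYVE1+CX3CR1+ control replicate 1 (0.0515).

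Among the sialyltransferases that extend sialic acid by another sialic acid, St8sia1, the GD3 ganglioside synthase, had no count in any LYVE1+CX3CR1+ control and 11.1, 7.99 and 0.378 CPM in MHCII+CD11c+ controls. With the limit of 3 counts per library that a count of 0 allows, its mean was at least 11.4-fold higher in MHCII+CD11c+ controls (adjusted p = 0.00372), although replicate 3 held only 0.378 CPM. St8sia6 was 0.472, 1.08 and 1.53 CPM against 35.9, 16.5 and 23.8 CPM (adjusted p = 0.0037).

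In N-glycan processing, 6 of the 11 tested members lay above their MHCII+CD11c+ level in LYVE1+CX3CR1+ controls, 1 was lower and 4 did not pass. Of all genes, 7.83% were called higher and 7.4% lower. Man1a and Man1c1, class I mannosidases, were higher by 1.35 ± 0.22 and 1.57 ± 0.25 on the log2 scale, and Mgat1, Mgat4b and Mgat5 by 0.77 ± 0.20, 0.89 ± 0.22 and 0.99 ± 0.31. The 2 alpha-mannosidase II genes went opposite ways. Man2a1 was 187, 157 and 232 CPM in LYVE1+CX3CR1+ against 74.9, 84.7 and 48.0 CPM in MHCII+CD11c+ controls (1.47 ± 0.21, adjusted p = 2.48e-05). Man2a2 was 61.9, 41.4 and 68.5 CPM against 185, 101 and 182 CPM (-1.44 ± 0.27, adjusted p = 0.000491). Fut8, which adds the core fucose of N-glycans, was higher in LYVE1+CX3CR1+ by 0.97 ± 0.25, and Fut10 was 10.7, 10.3 and 12.1 CPM against 0.213, 2.23 and 0 CPM. The calls of Mgat5, Fut8 and Fut10 were lost when single control libraries were left out. That of Mgat5 was also lost with 2 surrogate variables (adjusted p = 0.202), at equal depth (0.0571) and with a length offset (0.0541).

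Of the 22 tested members that extend chains with galactose or lactosamine, 4 were higher and 2 lower in LYVE1+CX3CR1+ controls. Of all genes, 7.83% were higher and 7.4% lower, so the count of lower members was near that share. B3gnt3, which builds lactosamine on O-glycans, was 35.9, 33.5 and 42.1 CPM against 1.91, 8.54 and 1.89 CPM (3.10 ± 0.49, adjusted p = 6.3e-05). B3galnt1, the globoside synthase, was 41.1, 29.5 and 40.0 CPM against 2.77, 9.10 and 4.16 CPM (2.75 ± 0.45, adjusted p = 0.000104). For both genes the highest MHCII+CD11c+ value was that of replicate 2, the library with the most Lyve1. B4galt1, which adds galactose to N-glycan branches, and B4galt7, which acts in the linker of glycosaminoglycan chains, were higher by 1.49 ± 0.35 and 1.44 ± 0.40. The call of B4galt7 was lost without replicate 1 of either subset (adjusted p of 0.0605 and 0.0806). B4galnt1, the enzyme that makes the gangliosides GM2 and GD2, was lower in LYVE1+CX3CR1+ macrophages, at 23.3, 21.9 and 25.4 CPM against 83.8, 73.0 and 59.8 CPM (-1.62 ± 0.37, adjusted p = 0.00314). B3gnt5, which starts lacto-series glycolipids, was at 0, 0 and 0.1395 CPM against 1.91, 2.41 and 1.13 CPM, and its call was lost under 9 alternatives.

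Syndecans were lower in LYVE1+CX3CR1+ macrophages. Sdc1, the syndecan known from plasma cells and epithelium, was 1.26, 0.541 and 0 CPM in these controls and 32.5, 18.4 and 51.4 CPM in MHCII+CD11c+ controls (adjusted p = 0.000666). Sdc3 was 430, 426 and 485 CPM against 951, 745 and 940 CPM (-0.97 ± 0.19, adjusted p = 0.000553). Sdc4 was 69.6, 107 and 64.5 CPM against 147, 196 and 110 CPM (-0.91 ± 0.22, adjusted p = 0.00417), so its groups were separated by a narrow gap. Sdc2 did not exceed 2.20 CPM in any library of the study and was not called in any comparison.

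In the sulfation and O-GalNAc groups, 1 of 7 carbohydrate sulfotransferases, 1 higher and 1 lower of 9 heparan sulfate members and 1 of 11 Galnt genes were called. Of all genes, 15.2% were called in this contrast, so such small counts do not set these groups apart. Chst11, which sulfates chondroitin, had no count in the 3 LYVE1+CX3CR1+ controls and 8.93, 4.83 and 6.43 CPM in MHCII+CD11c+ controls, a mean at least 11.9-fold higher (adjusted p = 0.000437). Chst1 went the other way, at 63.3, 59.2 and 88.3 CPM against 1.49, 7.99 and 0 CPM, and missed the threshold (adjusted p = 0.0527). In MHCII+CD11c- macrophages Chst1 was 5.76, 36.4 and 0.334 CPM in controls and 39.2, 5.15 and 3.30 CPM after IC, beside Vsig4 levels of 29.0, 306 and 22.4 CPM and of 541, 144 and 28.3 CPM in the same libraries. Its highest value in each of these groups was in the library with the most Vsig4. Ext1, which polymerizes heparan sulfate, was lower in LYVE1+CX3CR1+ controls (-0.87 ± 0.24), Ndst1, which starts its sulfation, was higher at 10.1, 10.3 and 11.9 CPM against 1.70, 2.04 and 0 CPM, and of the 11 tested Galnt genes 1 was called, Galnt9, with 0.787, 1.62 and 0.558 CPM against 19.6, 18.9 and 10.97 CPM (adjusted p = 0.00567). The calls of Ext1 and Ndst1 were lost in some fits that left out 1 control library, and that of Ext1 also with 2 surrogate variables (adjusted p = 0.103). Ext1, Ndst1, Fut10, Mgat5, St3gal6 and B3gnt5 fell outside the 25 members with the smallest p and were named after their values were seen.

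**Figure D1:**
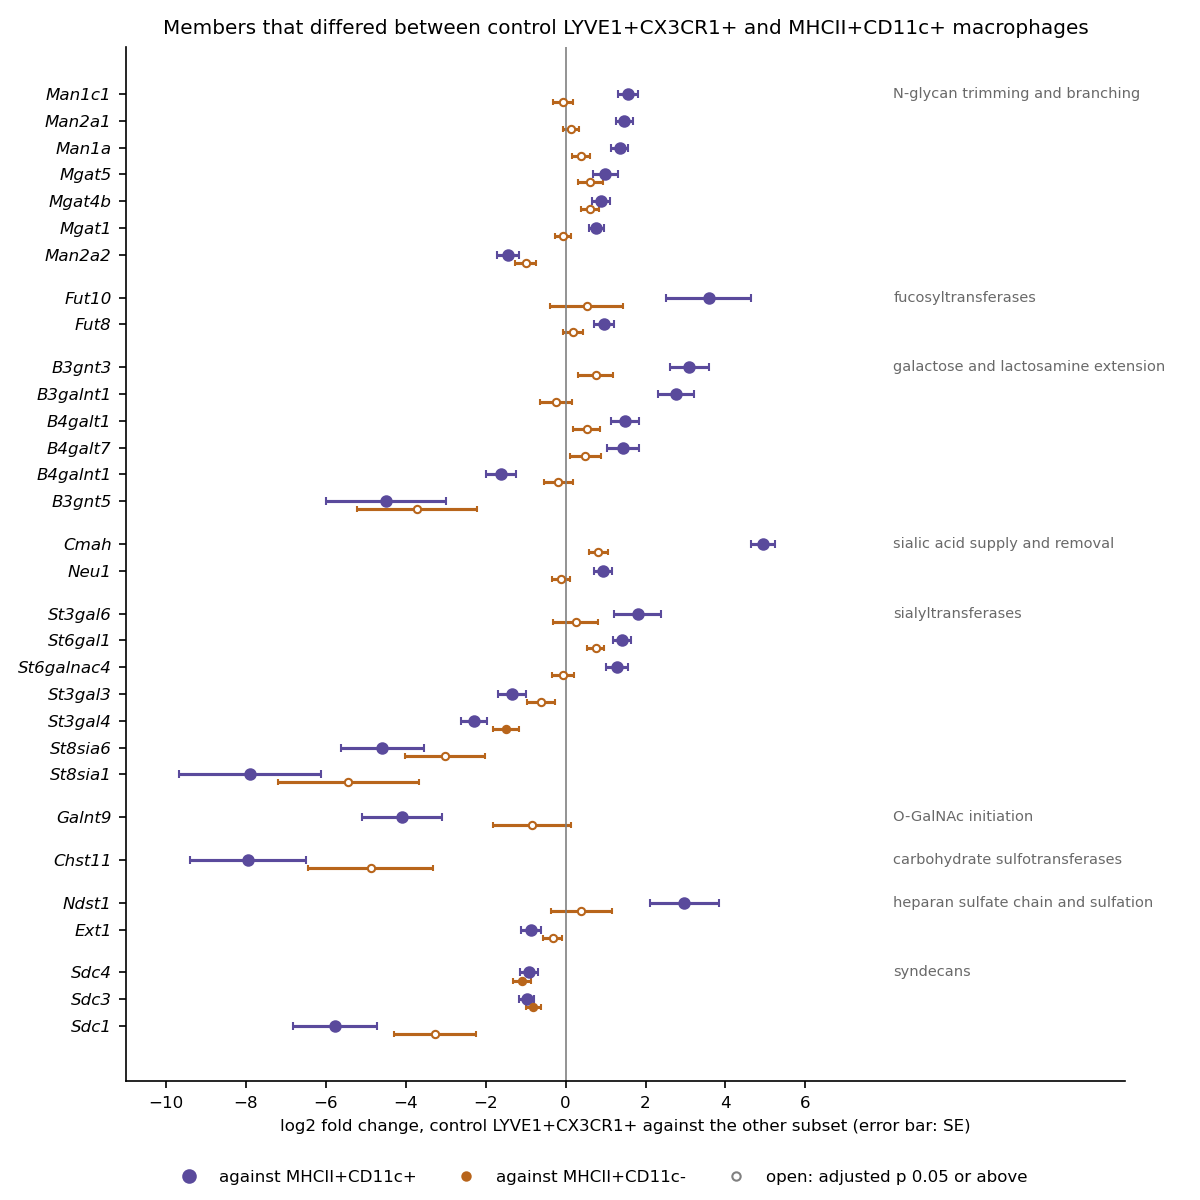
Log2 fold change of the 31 members that passed when control LYVE1+CX3CR1+ macrophages were set against MHCII+CD11c+ macrophages (large points), with the same members against MHCII+CD11c- controls (small points, open where the adjusted p was 0.05 or above). Error bars are SE, rows are grouped by role, and points left of 0 are lower in LYVE1+CX3CR1+. The 18 higher members include all of the called mannosidases except Man2a2, and the 3 called syndecans lie left of 0. The fitted values of St8sia1 and Chst11 rest on 0 counts in LYVE1+CX3CR1+ controls and have no fixed size.

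Replicate 2 of the MHCII+CD11c+ controls was the library nearest the LYVE1+CX3CR1+ mean for 23 of the 31 members called, against 1 for replicate 1 and 7 for replicate 3 (on the log2 scale). The members were called with these same libraries, and the share over all called genes is not given. The count therefore describes the library and not these members. Without it 37 members were called, 25 higher and 12 lower in LYVE1+CX3CR1+ macrophages, beside 16.4% of all genes (9.08% higher and 7.33% lower). Of the 31 calls, that of B3gnt5 was lost in this fit. There Cmah differed by 5.01 ± 0.36, Man2a1 by 1.64 ± 0.24, St3gal4 by -2.56 ± 0.33 and Sdc4 by -0.68 ± 0.22 on the log2 scale. Neutrophil markers (6 of 6 present in the table) summed to 66.9 to 278 CPM in MHCII+CD11c+ controls and 0.630 to 7.26 CPM in LYVE1+CX3CR1+ controls, and Ly6g and Mmp8 were at 0 in all 3 of the latter. Fibroblast markers summed to 220, 38.3 and 8.70 CPM in the MHCII+CD11c+ controls (replicates 1 to 3) and 34.0 to 69.0 CPM in LYVE1+CX3CR1+ controls. The part of neutrophil and fibroblast markers in these differences was not tested.

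Next, both MHCII+ subsets were compared to see which of these differences go with CD11c. MHCII+CD11c+ macrophages had less Cmah, less of 3 mannosidases and less Mgat1, B3galnt1, B3gnt3, St6galnac4 and Neu1 than MHCII+CD11c- macrophages, and more B4galnt1 and Galnt9. These were 11 of 86 members, where 8.66% of all genes were called, with 9 lower (4.99% of all genes) and 2 higher (3.67%) in MHCII+CD11c+ controls. Cmah was 153, 91.4 and 143 CPM in MHCII+CD11c- controls, above every MHCII+CD11c+ library (-4.12 ± 0.29, adjusted p = 2.8e-09). B3galnt1 was 48.0, 31.5 and 51.8 CPM in MHCII+CD11c- controls (-2.99 ± 0.45, adjusted p = 0.000108), and Man1c1 (-1.64 ± 0.25) and Man2a1 (-1.33 ± 0.21) were also lower with CD11c. Neu1 was 86.8, 88.0 and 77.9 CPM without CD11c and 41.5, 50.5 and 29.1 CPM with it (-1.05 ± 0.23, adjusted p = 0.00378). This comparison shares its MHCII+CD11c+ libraries with the one before. Without replicate 2 of the MHCII+CD11c+ controls, 22 members were called, 4 higher and 18 lower, beside 9.59% of all genes (3.63% higher and 5.97% lower), and that of Galnt9 was lost. In this fit Cmah differed by -4.19 ± 0.35 and B3galnt1 by -3.68 ± 0.52. The calls of Galnt9, B4galnt1 and Mgat1 were lost when other single libraries were left out, and those of B4galnt1 and Man1a also in a fit on these 2 groups alone.

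LYVE1+CX3CR1+ and MHCII+CD11c- controls differed in 4 members, where 1.56% of all genes were called. Sdc4 (-1.09 ± 0.22, adjusted p = 0.00819), Sdc3 (-0.81 ± 0.19, adjusted p = 0.021) and St3gal4 (-1.49 ± 0.33, adjusted p = 0.0158) were lower in LYVE1+CX3CR1+ macrophages, 3 members in a direction in which 1.22% of all genes were called. Man1a2, a class I mannosidase, was higher (0.93 ± 0.21, adjusted p = 0.0206), the 1 member in a direction with 0.34% of all genes. Man1a2 was 115, 116 and 107 CPM in LYVE1+CX3CR1+ against 70.6, 68.9 and 36.8 CPM in MHCII+CD11c- controls. Sdc4 was 178, 190 and 145 CPM in MHCII+CD11c- controls and thus near its level with CD11c. Each of these 4 calls was lost when some single libraries were left out, and without LYVE1+CX3CR1+ control replicate 1 no member was called. Cmah missed the threshold here (0.82 ± 0.24, adjusted p = 0.0973), and so did Man2a2 (adjusted p = 0.0605).

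After circulating IC, few members passed the test. In at least 1 subset, Sdc4, Man2a1 and Mgat2 rose and Cmah and Man2a2 fell. Of 86 members, 5 were called in MHCII+CD11c- macrophages, where 0.701% of all genes were called, 2 in MHCII+CD11c+ macrophages (0.216%) and 1 in LYVE1+CX3CR1+ macrophages (0.963%). Without CD11c, 3 of them rose and 2 fell, beside 0.543% and 0.157% of all genes. With CD11c, 2 rose, beside 0.216%, and no gene at all fell. In LYVE1+CX3CR1+ macrophages 1 member fell and none rose, beside 0.812% and 0.151% of all genes. Without adjustment, 18, 6 and 9 members had a p under 0.05. The share of all genes under that limit is not given, so these counts cannot be set against it. Median log2 changes of the members were -0.07, 0.17 and 0.02, beside -0.03, 0.01 and -0.14 for all genes.

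Sdc4 encodes a widely expressed heparan sulfate proteoglycan that acts with integrins at sites of adhesion. It lies at chr2:164424247-164443887 on the minus strand (GRCm38). In MHCII+CD11c- macrophages it was 533, 628 and 668 CPM after IC, against 178, 190 and 145 CPM in controls, a rise of 1.83 ± 0.22 on the log2 scale (adjusted p = 0.000125) that was called under every alternative. In MHCII+CD11c+ macrophages it was 356 and 354 CPM after IC against 147, 196 and 110 CPM (1.23 ± 0.23, adjusted p = 0.0244). That call was lost when any of 4 libraries of these groups was left out, each time with a positive change. It was also lost with 2 surrogate variables (adjusted p = 0.112) and in the fit of these 2 groups alone (0.252). Without control replicate 2, the control of this subset with the most Lyve1, the change was 1.46 ± 0.24 (adjusted p = 0.00180), where 0.688% of all genes were called. In LYVE1+CX3CR1+ macrophages Sdc4 was 98.0, 80.6 and 70.9 CPM after IC, inside the control range of 64.5 to 107 CPM (0.05 ± 0.22, adjusted p = 0.959).

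Sort markers also moved with IC in MHCII+CD11c- macrophages. Lyve1 was 695 to 1131 CPM in controls and 1455 to 2458 CPM after IC, without overlap, whereas Cx3cr1, Timd4 and Vsig4 overlapped. All 4 MHC class II markers were lower without overlap, H2-Ab1 at 3883 to 4307 CPM in controls and 2654 to 2852 CPM after IC and Cd74 at 7546 to 9342 CPM and 5522 to 5721 CPM. Neutrophil markers summed to 0.334 to 150 CPM in controls and 1.11 to 16.1 CPM after IC. The part of these shifts in the changes of Sdc4, Cmah, Man2a1, Man2a2 and Mgat2 in this subset was not tested.

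The difference between these responses was tested directly. The response of Sdc4 in LYVE1+CX3CR1+ macrophages differed from that in MHCII+CD11c- macrophages by -1.78 ± 0.31 on the log2 scale (interaction, adjusted p = 0.0291), the only member called in this contrast, in which 0.0262% of all genes were called. The adjusted p ranged from 0.000992 to 0.199 over the alternatives, and the call was lost when any of 7 libraries was left out. Against MHCII+CD11c+ macrophages the difference was -1.18 ± 0.32 and missed the threshold (adjusted p = 0.22). No member was called in that contrast, in which 0.0327% of all genes were called, while 7 members had an unadjusted p under 0.05 and DESeq2 called 0. Without MHCII+CD11c+ control replicate 2, Sdc4 was called there (-1.41 ± 0.31, adjusted p = 0.0442), beside 0.37% of all genes. Between both MHCII+ subsets no member and no gene was called (0%), with 5 members at an unadjusted p under 0.05 and 0 called by DESeq2. Leaving out that library also gave no member, beside 0.139% of all genes. The shares of all genes at an unadjusted p under 0.05 are not given for these contrasts, so the unadjusted counts cannot be set against them.

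The sequence before the RefSeq start of Sdc4 is shown with that of Cmah, because these genes moved in opposite directions after IC. Each line gives the 250 bases upstream of the start, 5′ to 3′ on the gene's strand, in GRCm38.p6, and no exon of GENCODE M21 overlaps either window. The Sdc4 window lies at chr2:164443189-164443438 on the minus strand. It falls inside the span of Sdc4 in GENCODE M21, downstream of the 5′ end given there (164443887), so it is not upstream of the gene in that annotation. The Cmah window lies at chr13:24327154-24327403 on the plus strand, the first of 2 RefSeq starts of Cmah. Capitals mark matches to the 8 motifs searched.
Sdc4: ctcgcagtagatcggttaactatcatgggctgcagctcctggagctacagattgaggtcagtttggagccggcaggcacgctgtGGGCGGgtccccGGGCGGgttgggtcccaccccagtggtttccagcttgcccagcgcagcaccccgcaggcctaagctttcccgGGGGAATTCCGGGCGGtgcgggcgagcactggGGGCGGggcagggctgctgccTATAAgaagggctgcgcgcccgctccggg
Cmah: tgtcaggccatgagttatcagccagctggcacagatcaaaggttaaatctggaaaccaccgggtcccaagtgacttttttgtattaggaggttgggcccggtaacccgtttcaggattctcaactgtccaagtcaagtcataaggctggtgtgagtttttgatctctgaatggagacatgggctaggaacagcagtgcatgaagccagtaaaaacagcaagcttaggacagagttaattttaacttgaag

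The motifs were the GC box (GGGCGG), the NF-kappaB (kB) motif, AP-1 (TGANTCA), GAS (TTCNNNGAA), the E-box (CACGTG), the CCAAT box (CCAAT), PU.1 (GAGGAAG) and the TATA box (TATAA), searched on both strands. The Sdc4 window held 4 GC boxes, 1 kB match, which begins 82 bases before the start and is followed directly by a GC box without overlap, and 1 TATA box, which begins 29 bases before it. The Cmah window held none of the 8. Of all 32851 RefSeq windows of this length, 32.7% held a GC box, 7.25% a kB match and 22.8% a TATA box. GC content was 68.0% for Sdc4 and 45.6% for Cmah, beside a median of 52.4%. A match says only that these letters are present, and the motifs were chosen with the results known.

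**Figure D2:**
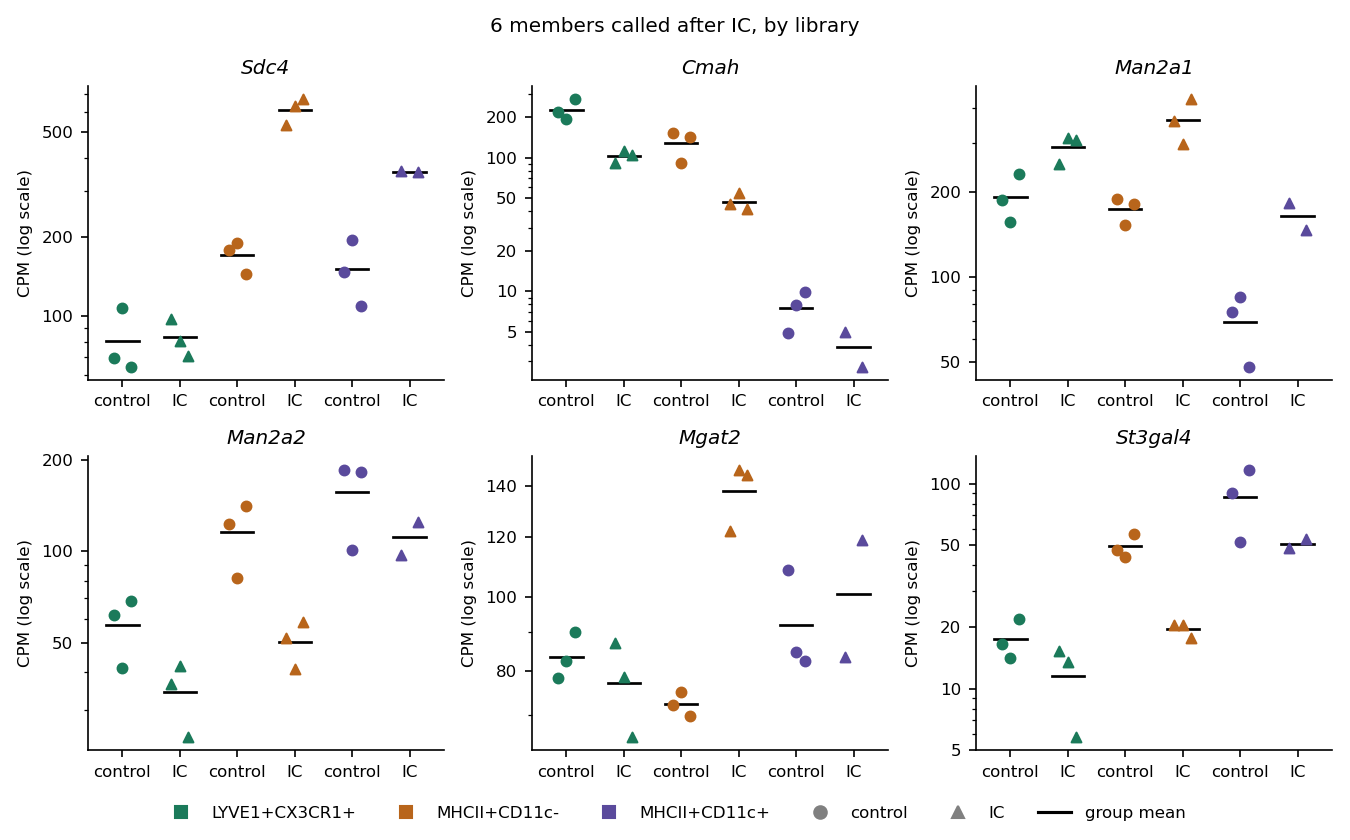
CPM (log axis) of 6 members called after IC, in each of 17 libraries. Circles are control and triangles IC libraries, colours are subsets and black bars are group means. The Sdc4 values of MHCII+CD11c- macrophages lie between 533 and 668 CPM after IC and between 145 and 190 CPM in controls, and Cmah is lower after IC in LYVE1+CX3CR1+ and MHCII+CD11c- macrophages with no overlap of libraries.

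The rise of Sdc4 altered the makeup of the syndecans in the MHCII+ subsets. Taken per kilobase within a library, Sdc4 made up 31.8%, 39.6% and 29.8% of syndecan transcripts in MHCII+CD11c- controls and 50.3%, 63.8% and 55.6% after IC, when it exceeded Sdc3 in all 3 libraries. Its share in MHCII+CD11c+ macrophages was 25.7%, 37.3% and 20.2% in controls and 41.7% and 39.5% after IC. In LYVE1+CX3CR1+ macrophages the shares after IC (27.6% to 33.7%) lay inside the control range (23.8% to 37.2%). Sdc3 itself was 889, 676 and 789 CPM in MHCII+CD11c- controls and 1233, 822 and 1240 CPM after IC and was not called (0.49 ± 0.18, adjusted p = 0.317). Shares within a library show unequal change of the genes and were not tested.

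**Figure D3:**
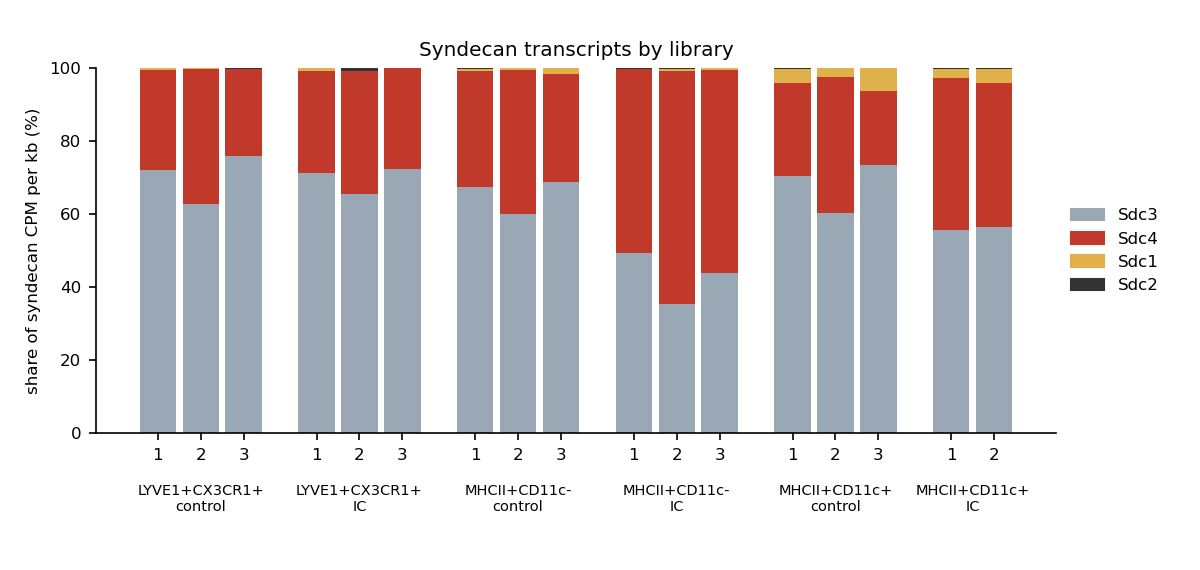
Share of each syndecan in the summed syndecan CPM per kb (%) of each library, by group and replicate number. Sdc4 takes 50.3% to 63.8% in MHCII+CD11c- macrophages after IC and at most 39.6% in any control library, while Sdc2 and Sdc1 stay small.

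Cmah lies at chr13:24327404-24477377 on the plus strand. It fell in LYVE1+CX3CR1+ macrophages from 218, 194 and 272 CPM to 91.3, 112 and 105 CPM (-1.15 ± 0.24, adjusted p = 0.0206), the highest value after IC lying well under the lowest control. It also fell in MHCII+CD11c- macrophages, from 153, 91.4 and 143 CPM to 45.2, 54.4 and 41.3 CPM (-1.46 ± 0.25, adjusted p = 0.00368), a call held under every alternative. In MHCII+CD11c+ macrophages, in which it was low without IC, it was 4.99 and 2.75 CPM after IC and 4.89 to 9.83 CPM in controls (-0.91 ± 0.34, adjusted p = 0.734). None of the 3 tests of a difference in response between subsets passed (0.30 ± 0.34, -0.24 ± 0.42 and 0.54 ± 0.42, adjusted p of 0.916 to 1), which does not show that the responses are alike. The call in LYVE1+CX3CR1+ macrophages was lost with 2 surrogate variables (adjusted p = 0.0793), at equal depth (0.0598) and without control replicate 1 or 3 or IC replicate 1 or 3 (0.0751 to 0.161). In that subset Lyve1 was 1727 to 2338 CPM in controls and 3272 to 4116 CPM after IC, Vsig4 1119 to 1209 and 1581 to 2016 CPM and Cx3cr1 333 to 528 and 244 to 304 CPM, each without overlap, and the part of these shifts was not tested. The other members that supply or remove sialic acid were not called after IC, as Neu1 changed by 0.28 ± 0.22, 0.04 ± 0.22 and 0.40 ± 0.25, Cmas by 0.30 ± 0.38, 0.19 ± 0.39 and 0.02 ± 0.42 and Gne by -0.23 ± 0.55, -0.27 ± 0.54 and -0.05 ± 0.60 (LYVE1+CX3CR1+ first, then both MHCII+ subsets, without and with CD11c).

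The alpha-mannosidase II genes changed in opposite directions. Man2a1 (chr17:64600736-64755110, plus strand) rose in MHCII+CD11c- macrophages from 189, 153 and 182 CPM to 358, 297 and 428 CPM (1.05 ± 0.21, adjusted p = 0.014) and in MHCII+CD11c+ macrophages from 74.9, 84.7 and 48.0 CPM to 183 and 147 CPM (1.25 ± 0.23, adjusted p = 0.0191). In LYVE1+CX3CR1+ macrophages it was 252, 311 and 307 CPM after IC and 187, 157 and 232 CPM in controls, with no overlap, but missed the threshold (0.59 ± 0.21, adjusted p = 0.181). Man2a2 (chr7:80349097-80371375, minus strand) fell in MHCII+CD11c- macrophages from 123, 81.5 and 141 CPM to 51.7, 41.0 and 58.6 CPM (-1.19 ± 0.27, adjusted p = 0.0362). It was 36.6, 41.9 and 24.5 CPM after IC against 61.9, 41.4 and 68.5 CPM in LYVE1+CX3CR1+ and 97.0 and 125 CPM against 185, 101 and 182 CPM in MHCII+CD11c+ macrophages, with overlap in both and neither called. In MHCII+CD11c+ macrophages after IC, Lyve1 was 303 and 137 CPM, above 2 of the 3 controls. Mast cell markers (3 of 4 present) summed to 17.04 and 31.2 CPM, above 0.425 to 3.40 CPM in controls. Mural and muscle markers (4 of 5 present) summed to 125 and 24.4 CPM, above 0.213 to 6.43 CPM. Endothelium markers summed to 27.9 and 26.6 CPM, above 3.03 to 15.0 CPM. Macrophage markers (3692 and 3398 CPM against 2404 to 2727 CPM) and Timd4 (52.2 and 48.6 CPM against 9.78 to 12.5 CPM) were also higher. Neutrophil markers summed to 1.18 and 0.366 CPM, under the 66.9 to 278 CPM of controls, and fibroblast sums overlapped. The part of these shifts in the changes of Man2a1 and Sdc4 was not tested. Without control replicate 2, Man2a1 changed by 1.42 ± 0.25 (adjusted p = 0.00282). In MHCII+CD11c- macrophages the call of Man2a1 was lost without control or IC replicate 3 and that of Man2a2 under 7 alternatives, and in MHCII+CD11c+ macrophages the call of Man2a1 was lost under 5.

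Within a library, the ratio of Man2a1 to Man2a2 per kilobase of exon does not depend on the scaling of libraries. It was 4.32, 5.43 and 4.83 in LYVE1+CX3CR1+ controls and 9.84, 10.6 and 17.9 after IC. In MHCII+CD11c- macrophages it was 2.19, 2.68 and 1.85 in controls and 9.89, 10.3 and 10.4 after IC. In MHCII+CD11c+ macrophages it was 0.578, 1.20 and 0.377 in controls and 2.70 and 1.68 after IC. Libraries after IC lay above all controls of their subset, and the order of the subsets in controls was that of the tests above. The ratio of St6gal1 to St3gal4 was 6.96 to 10.99 in LYVE1+CX3CR1+ controls and reached 12.2 to 26.1 with IC. Without CD11c it was 1.68 to 2.06 in MHCII+ controls and reached 2.77 to 5.17 with IC. With CD11c it was 0.312 to 1.20 in controls and 0.990 and 1.32 with IC, and the ranges overlapped. These ratios combine genes described above and were given no test.

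**Figure D4:**
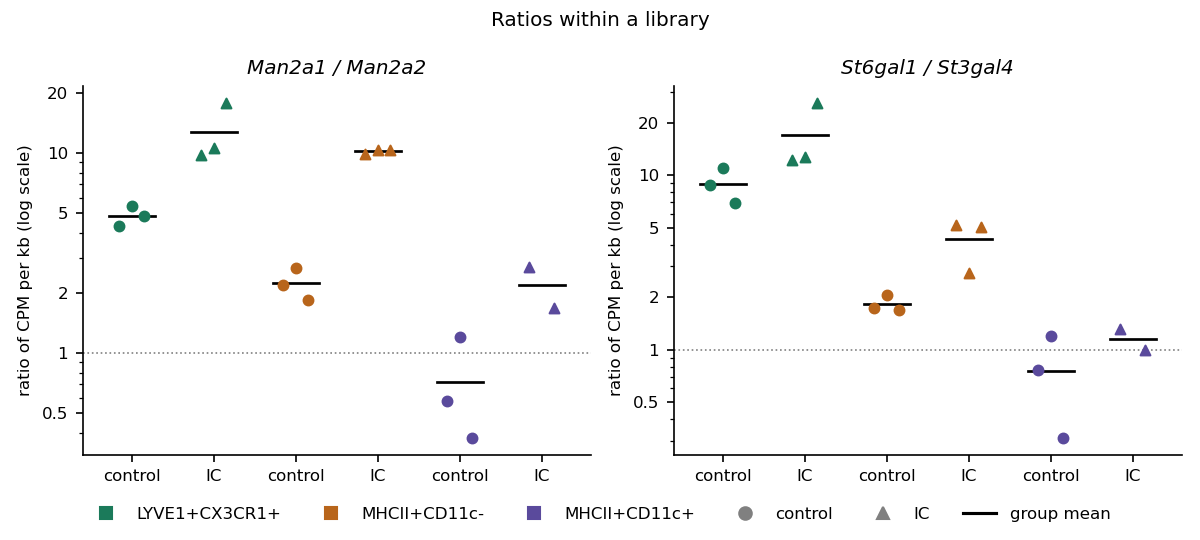
Ratio of CPM per kb of exon between Man2a1 and Man2a2 (left) and between St6gal1 and St3gal4 (right) in each library, on log axes, with the dotted line at 1. Circles are control and triangles IC libraries and bars are group means. The ratio of Man2a1 to Man2a2 lies at 9.84 to 17.9 after IC in LYVE1+CX3CR1+ macrophages, above their controls at 4.32 to 5.43.

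Mgat2, which acts on the product of alpha-mannosidase II and lies at chr12:69184157-69186770 on the plus strand, rose in MHCII+CD11c- macrophages from 72.3, 75.1 and 69.9 CPM to 122, 147 and 145 CPM (0.93 ± 0.19, adjusted p = 0.018). It was not called in LYVE1+CX3CR1+ (-0.11 ± 0.19) or MHCII+CD11c+ macrophages (0.14 ± 0.21), but the differences of these responses from that of MHCII+CD11c- macrophages were not called either (-1.04 ± 0.27, adjusted p = 0.278, and -0.79 ± 0.29, adjusted p = 1). The call was lost without control replicate 1 or 3 or IC replicate 2 or 3 and in the fit of these 2 groups alone (adjusted p of 0.0529 to 0.109). Mgat1, which acts before it, was 189, 144 and 148 CPM in these controls and 173, 141 and 130 CPM after IC. Of the 11 N-glycan members tested in MHCII+CD11c- macrophages, 2 rose, 1 fell and 8 did not pass, beside 0.543% of all genes higher and 0.157% lower.

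Averaged over the 3 subsets with equal weight, 6 members were called, where 3.35% of all genes were called, with 3 higher (1.7% of all genes) and 3 lower (1.65%). Sdc4 (1.04 ± 0.13, adjusted p = 3.31e-05), Man2a1 (0.96 ± 0.12, adjusted p = 5.68e-05), Cmah (-1.17 ± 0.16, adjusted p = 0.000139) and Man2a2 (-0.81 ± 0.16, adjusted p = 0.00597) were called under every alternative. Without MHCII+CD11c+ control replicate 2, 7 members were called on average, beside 4.43% of all genes, and the log2 changes of these 4 genes were 1.12, 1.02, -1.15 and -0.88. St3gal4 fell on average (-0.89 ± 0.20, adjusted p = 0.0113), a call lost without MHCII+CD11c+ IC replicate 1 (0.0698). In MHCII+CD11c- macrophages, where its change was widest, St3gal4 was 47.6, 43.8 and 56.8 CPM in controls and 20.4, 20.4 and 17.6 CPM after IC (-1.34 ± 0.33, adjusted p = 0.0557). Chst11 rose on average (adjusted p = 0.0306), but it had 0 counts in 5 of the 6 LYVE1+CX3CR1+ libraries, with 1.66 CPM in IC replicate 3, and without that library its adjusted p was 1. In MHCII+CD11c+ macrophages Chst11 was 19.7 and 34.1 CPM after IC against 8.93, 4.83 and 6.43 CPM.

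**Figure D5:**
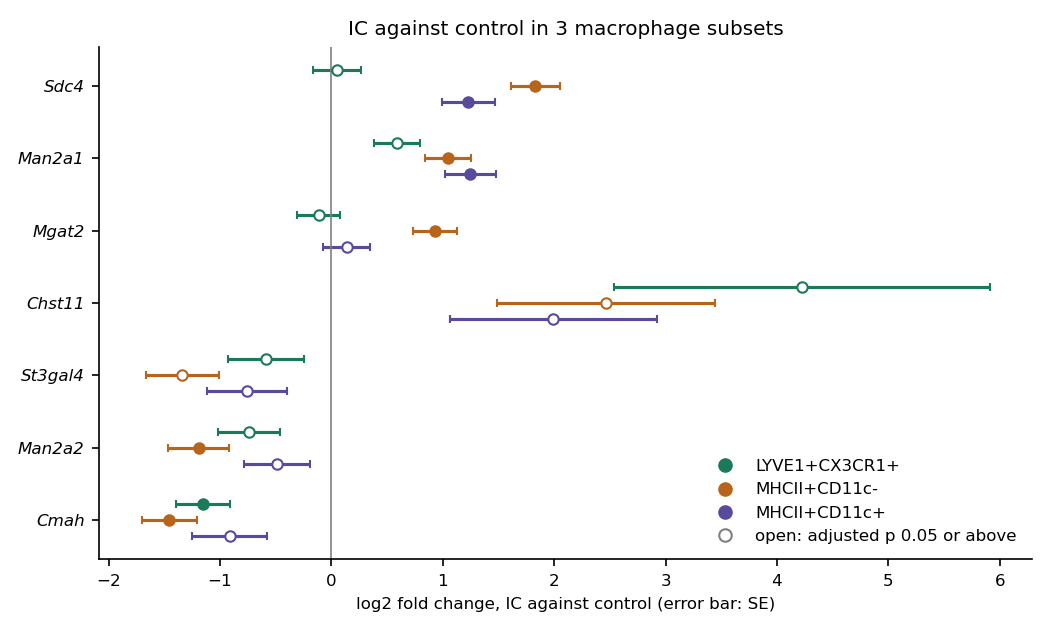
Log2 fold change (IC against control, error bars SE) of the 7 members called after IC in a subset or on average, in each of the 3 subsets. Filled points passed an adjusted p of 0.05. Sdc4 lies at 1.83 and 1.23 in the MHCII+ subsets and 0.05 in LYVE1+CX3CR1+ macrophages, whereas Cmah and Man2a2 lie left of 0 in all 3. The LYVE1+CX3CR1+ point of Chst11 rests on controls with 0 counts and has no fixed size.

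The reads of some members cannot be assigned with certainty, because the use of strand in counting was not stated and their exons overlap a gene on the other strand. This holds for Man2a2 with Hddc3, St3gal4 with 4930581F22Rik, Man2a1 with Gm17133 and Sdc3 with Gm12970, and also for Mgat2, Man1a, Mgat5, Fut8, St6gal1, St3gal6, St8sia1, St8sia6, B4galnt1 and B4galt7. The overlapping genes were low, as group means were at most 2.07 CPM for Hddc3, 8.33 CPM for 4930581F22Rik, 0.649 CPM for Gm17133 and 0.835 CPM for Gm12970. The partner of St3gal6, Dcbld2, had group means of 14.01 to 33.5 CPM. Sdc4 and Cmah have no such partner.

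Genes of the same pathways outside the selection, such as Siglec receptors, galectins and proteoglycans, were taken from a list. Of 58 such genes, 48 were tested, and 14 were higher and 8 lower in control LYVE1+CX3CR1+ macrophages when set against MHCII+CD11c+, where 7.83% of all genes were higher and 7.4% lower. Higher in LYVE1+CX3CR1+ were Cd33, a sialic acid receptor (424 to 490 CPM against 31.8 to 62.2 CPM), Npl, which breaks sialic acid down (28.1 to 66.4 CPM against 2.13 to 8.36 CPM), Gcnt1, which branches O-glycans (68.1 to 77.2 CPM against 10.97 to 22.3 CPM), and the chondroitin sulfate proteoglycan Vcan (441 to 682 CPM against 1.89 to 22.5 CPM). Lower were the hyaluronan receptor Cd44 and the sialic acid receptor Siglecg. Between MHCII+CD11c+ and MHCII+CD11c- controls 4 were higher and 11 lower with CD11c, where 3.67% of all genes were higher and 4.99% lower. Among the lower was Siglec1, the sialoadhesin of macrophages, at 56.7 to 64.9 CPM with CD11c and 325 to 859 CPM without it. After IC, Siglech fell in LYVE1+CX3CR1+ macrophages (15.7 to 27.1 CPM in controls, 0 to 4.15 CPM after IC, adjusted p = 0.0225) and Siglecg in MHCII+CD11c- macrophages (1.94 to 22.1 CPM to 0 to 1.24 CPM, adjusted p = 0.0323), and none was called in MHCII+CD11c+ macrophages. Sdcbp, the adaptor that binds syndecan tails, was 310 to 543 CPM over all libraries and was not called in any comparison.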

How the data were processed

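Total RNA (5 ng) from sorted synovial macrophages was made into stranded libraries and sequenced in pairs. The authors trimmed 3 bases of read 1 and used Trim Galore, FastQC, HISAT2 on mm10 and featureCounts. Versions, annotation, strand and multimapping settings are not given in the sources used here. The deposited values are raw counts per gene, and 1 column of the joint table that matched no sample was not used.

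Counts of 17 libraries (2301913 to 7248939 in total, so that 3 counts are 0.414 to 1.30 CPM before scaling) were scaled by TMM, filtered by filterByExpr (minimum count 10) and tested with edgeR 4.0.16 in R 4.3.3, by the quasi-likelihood F test with 1 mean per group and Benjamini-Hochberg adjustment over 15272 genes. CPM use TMM-scaled totals. Contrasts were IC against control per subset and on average, between control subsets, and between responses. Alternatives were DESeq2 1.42.0, RLE factors, no filter, 2 surrogate variables (sva 3.50.0), equal depth, a length offset, a replicate block, the compared groups alone, and leaving out each library. The fit was tested on simulated data.

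Exon lengths and positions come from GENCODE M21 (104 of 105 members matched) and promoters from RefSeq (GRCm38.p6). Members, lists and motifs were chosen with earlier results of these data known. Named were the 9 members listed by symbol, up to 25 called members per contrast by smallest p, and the member highest per kilobase in each family, with exceptions stated. Fibroblast, endothelium, mural, T cell, B cell, mast cell and neutrophil markers were checked.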

Additional observations from a re-analysis of the deposited data

Results flagged for a closer look

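The response of Sdc4 to IC differed between LYVE1+CX3CR1+ and MHCII+CD11c- macrophages by -1.78 on the log2 scale, by the test of the difference itself (edgeR interaction, adjusted p = 0.0291). Sdc4 was higher after IC in 3 of 3 MHCII+CD11c- libraries than in every control, while all 3 LYVE1+CX3CR1+ libraries after IC lay inside their control range. The call was lost with 2 surrogate variables (0.115) and without any of 7 single libraries (adjusted p up to 0.199), 8 of 19 alternatives.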

How the results depend on the processing

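Of 61 calls of members over all contrasts, 35 held under every alternative, 26 were lost under at least 1 and 0 reversed. With 2 surrogate variables, 0 members were called after IC in LYVE1+CX3CR1+ and in MHCII+CD11c+ macrophages and 0 in the difference between LYVE1+CX3CR1+ and MHCII+CD11c- responses. At equal depth 0 and with a length offset 2 members were called after IC in LYVE1+CX3CR1+ macrophages. DESeq2 called 8 members after IC in MHCII+CD11c- macrophages, 8 when LYVE1+CX3CR1+ controls were set against MHCII+CD11c- controls and 21 between the MHCII+ controls. In fits of only the 2 groups compared, 0 members were called after IC in MHCII+CD11c+ macrophages and 8 when LYVE1+CX3CR1+ were set against MHCII+CD11c- controls. The cause was not tested. Except without MHCII+CD11c+ control replicate 2, the share of all genes called in the fits of this section is not given. A change in these counts therefore cannot be told apart from a change in calls over all genes.

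Leaving out 1 library at a time gave 0 to 2 members after IC in LYVE1+CX3CR1+ macrophages (0 without control 1 or 3 or IC 1 or 3, 2 without IC 2), 2 to 6 in MHCII+CD11c- macrophages (3 without control 1 or IC 2, 2 without control 3 or IC 3), 0 to 2 in MHCII+CD11c+ macrophages (0 without control 1 or 3 or IC 1, 1 without IC 2) and 4 to 8 on average. Between controls it gave 0 to 5 for LYVE1+CX3CR1+ against MHCII+CD11c- macrophages (0 without LYVE1+CX3CR1+ 1, 1 without LYVE1+CX3CR1+ 2 or 3 or MHCII+CD11c- 3, 2 without MHCII+CD11c- 1), 24 to 37 for LYVE1+CX3CR1+ against MHCII+CD11c+ and 9 to 22 between the MHCII+ subsets (22 without MHCII+CD11c+ 2). For the differences of responses it gave 0 to 1, 0 to 1 (1 without MHCII+CD11c+ control 2) and 0.

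Same-numbered libraries of different subsets correlated at 0.00129 to 0.286 in their deviations (16 pairs, median 0.0413), and differently numbered ones at -0.15 to 0.0672 (32 pairs, median -0.0287). All same-numbered pairs lay above 0, some of them only just, and no label states that the numbers pair samples. These values do not settle whether same-numbered libraries share mice, and the main tests were unpaired. A replicate block was fitted as an alternative. It joined equal numbers across treatments in the IC contrasts and within each treatment in all others. With the replicate block, 1, 5, 2 and 6 members were called after IC (LYVE1+CX3CR1+ first, then both MHCII+ subsets, without and with CD11c, and the average), 5, 32 and 16 between control subsets, and 1, 0 and 0 in the differences of responses. Groups of 2 or 3 libraries and totals of 2301913 counts upward limit what could be called among low members.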
